A study of Mus musculus with 2 samples.

Results

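Dcn, Col14a1, Col15a1, Thbs2 and Efemp1, 5 genes for secreted proteins of the extracellular matrix, were followed in single cells, in vessels and by position in and around the embryonic mouse brain. They were chosen by name from the matrix genes of the imaging panel, with earlier results of these data known. Each has a column in both cell-by-gene tables, and they make up 5 of the 500 panel genes. The data were MERFISH images, in which single RNA molecules are decoded in place by rounds of fluorescent hybridisation, of 10 µm coronal sections through flash-frozen whole heads at E16.5, so that tissue around the brain was imaged with it. The control section came from an Sst-Cre/tdTomato embryo and the KO section from an Sst-Cre/tdTomato/Dnmt1 loxP2 embryo. Both carried the Sst-Cre driver and the tdTomato reporter, and the floxed Dnmt1 allele was particular to the KO. Cre is made in somatostatin-expressing cells, and where these lie in the imaged heads was not examined here. Dnmt1 is not on the panel, so its loss could not be checked. There was 1 section per genotype, each from its own imaging run. No test between genotypes was therefore made, run and genotype cannot be told apart, and all intervals below are 95% intervals for counting error only.

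The extracellular matrix is a meshwork of collagens, proteoglycans and adaptor glycoproteins that gives tissues their strength and holds growth factors. Fibroblasts make most of it in skin, bone coverings and meninges, whereas the brain parenchyma holds little fibrillar collagen. Blood vessels rest on a basement membrane, a thin matrix sheet laid down by endothelial and mural cells. Dcn encodes decorin, a small proteoglycan that binds collagen fibrils and growth factors of the TGF-beta family. Col14a1 encodes a collagen that sits on the surface of fibrils and regulates their assembly. Col15a1 encodes a collagen that links basement membranes to the fibrils next to them. Thbs2 encodes thrombospondin 2, a matricellular protein that restrains angiogenesis, and Efemp1 encodes fibulin 3, a glycoprotein of elastic and basement membrane-associated matrix.

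The transcripts that the decoded molecules were assigned to were located in the GENCODE annotation of GRCm39. Dcn was assigned to a transcript spanning the gene, on the plus strand of chromosome 10 from 97315275 to 97358155, with 8 exons. The Thbs2 transcript lies on the minus strand of chromosome 17 from 14885761 to 14914528 and that of Efemp1 on the plus strand of chromosome 11 from 28803150 to 28876825. For both collagens the assigned transcript is a short one. Col14a1-203 covers positions 55312222 to 55383085 of chromosome 15 in 18 exons with an incomplete start, and Col15a1-203 covers 47303722 to 47313179 of chromosome 4 in 8 exons at the distal end of the gene, so that other isoforms may be seen less fully. Levels are therefore compared between places and sections for each gene, and not between genes.

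Because Dnmt1 encodes the enzyme that methylates cytosine in CpG pairs, the CpG pairs before the start of 3 genes are shown. The 250 bases before the RefSeq start site in GRCm38.p6 are given 5′ to 3′, with each CpG in capitals. They lie at chr4:47207762-47208011 on the plus strand for Col15a1, at chr11:28852955-28853204 on the plus strand for Efemp1 and at chr17:14694263-14694512 on the minus strand for Thbs2. The Col15a1 window lies at the start of the gene and not before Col15a1-203, which begins at 47303722 in GRCm39.
Col15a1: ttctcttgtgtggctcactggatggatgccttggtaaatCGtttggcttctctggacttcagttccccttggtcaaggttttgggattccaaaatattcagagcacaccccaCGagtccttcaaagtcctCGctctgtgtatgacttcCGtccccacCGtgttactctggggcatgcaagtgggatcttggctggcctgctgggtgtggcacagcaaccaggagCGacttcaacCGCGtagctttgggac
Efemp1: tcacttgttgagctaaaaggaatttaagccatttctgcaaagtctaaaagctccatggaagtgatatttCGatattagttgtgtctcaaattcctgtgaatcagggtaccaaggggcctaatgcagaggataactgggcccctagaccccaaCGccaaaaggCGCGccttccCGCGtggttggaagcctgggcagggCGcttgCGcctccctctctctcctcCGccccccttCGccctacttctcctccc
Thbs2: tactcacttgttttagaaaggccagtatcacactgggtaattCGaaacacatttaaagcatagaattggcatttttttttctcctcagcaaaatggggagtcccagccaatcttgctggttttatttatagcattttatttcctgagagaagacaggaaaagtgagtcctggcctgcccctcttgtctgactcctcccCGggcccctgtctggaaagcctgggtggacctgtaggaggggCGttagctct
Thbs2 held 3 CpG pairs in this window, Col15a1 held 8 and Efemp1 held 10, against a median of 6 over 32851 promoters of the same length. The letters TATAAA, searched on both strands, were present before Thbs2 and in 12.4% of all these promoters. Methylation was not measured in these sections, so these letters are context only.

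The sections differed in depth. In the control section 108533 segmented cells held 2842355 panel transcripts, and in KO tissue 110004 cells held 13437174. Median transcripts per cell were 20 and 101. Cells with at least 20 transcripts were kept, which left 55231 control and 101250 KO cells. Levels are given as CPM, the transcripts of a gene per 1000000 panel transcripts of the same cells. The panel's 50 blank barcodes, which match no RNA, had a median of 82.1 CPM over the control section and 87.5 CPM over the KO section, and a level in that range cannot be told from false decoding. The brain was outlined from the share of neural transcripts among neural, vessel and connective tissue transcripts. Inner brain lies more than 100 µm inside this outline, the edge band runs from 50 µm inside to 75 µm outside it, and all tissue further out is called outside the brain. The band rests on position alone, so meninges are not told apart from other tissue, in the band or further out. Low-neural pockets enclosed by the brain were set apart after the data were seen. The neural list, with 15 genes such as Tbr1 and Gad1, made up 12.9% of control and 15.6% of KO transcripts in the inner brain, and 0.820% and 1.14% outside. The connective list of 9 genes, among them Osr1 and Igf2, made up 0.705% and 0.484% in the inner brain and 26.7% and 19.96% outside. These lists drew the outline, so their shares on each side are partly set by it. The same holds for their genes named below, such as Igfbp5, Shisa3 and Hhip.

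All 5 genes were concentrated outside the brain in both sections. Of the transcripts of Thbs2, 94.2% in control tissue and 86.2% in KO tissue were in cells outside the brain. For Dcn the shares were 86.3% and 81.6%, and for Efemp1 87.5% and 85.1%. The 2 collagens were less confined. Col14a1 had 77.2% and 68.9% of its transcripts outside the brain, and Col15a1 68.6% and 69.0%.

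**Figure D1:**
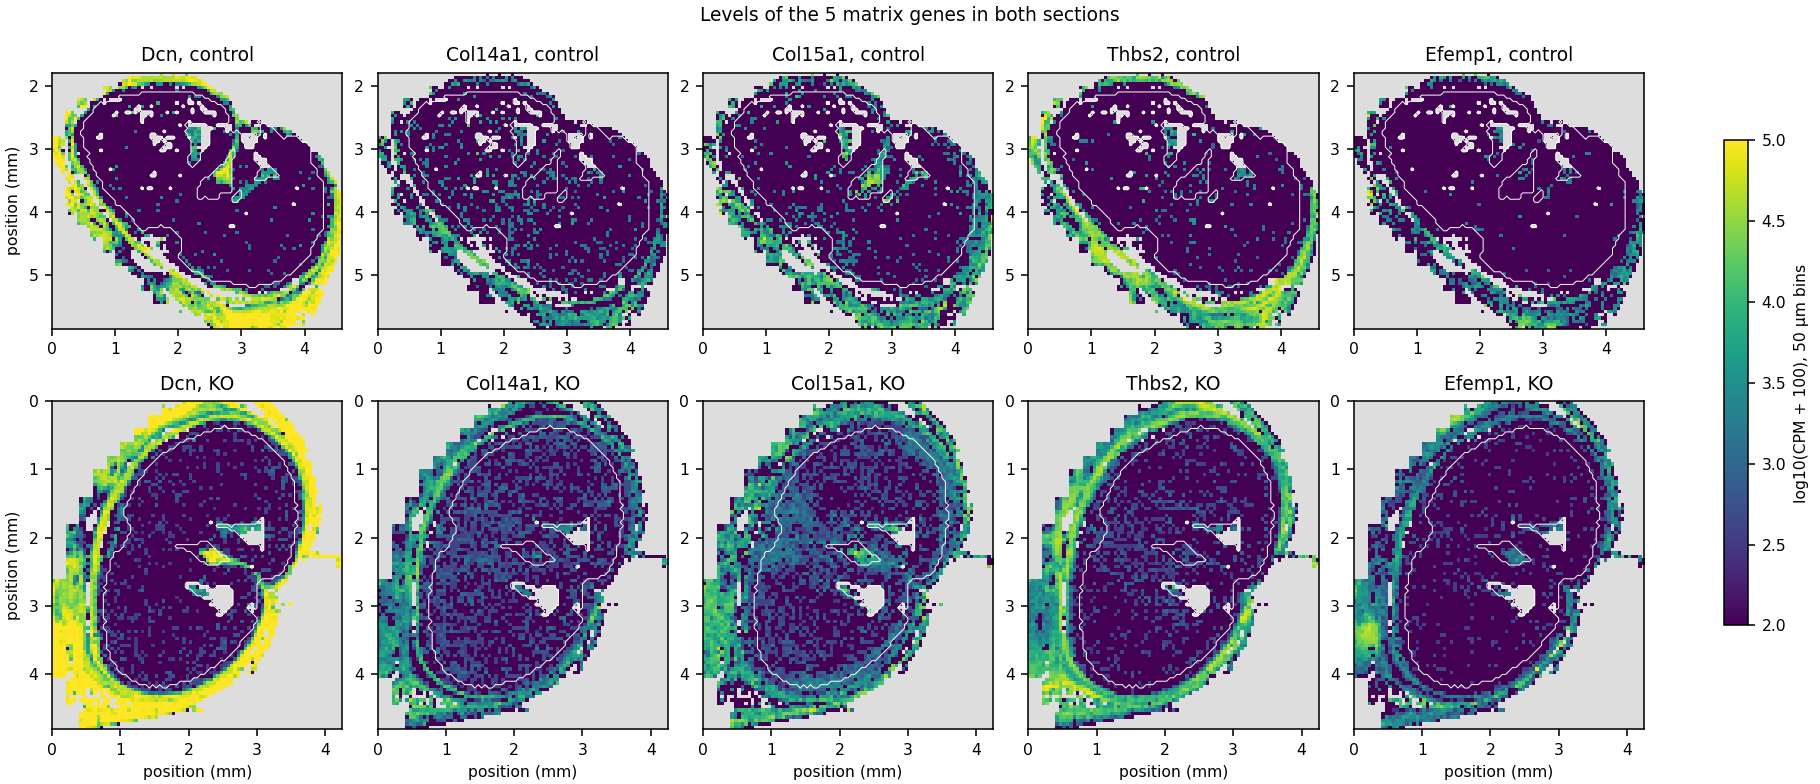
Level of each gene in 50 µm bins of the control section (top) and the KO section (bottom), as log10(CPM + 100), with position in mm on both axes and the inner brain outlined in white. All 5 genes are brightest in the tissue around the brain, with 86.3% of Dcn transcripts in control tissue and 81.6% in KO tissue outside it, and Dcn and Col15a1 also appear in pockets enclosed by the brain.

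Dcn was far lower in the inner brain than in the tissue around it. Its level was 209 CPM (185 to 236) in the inner brain, 13113 CPM in the edge band and 51702 CPM outside in the control section. In the KO section the levels were 187 CPM (178 to 196), 23578 CPM and 69354 CPM. The outside level was 247-fold the inner level (217 to 283) in control tissue and 371-fold (351 to 392) in KO tissue. Thbs2 was 203-fold (169 to 247) and 129-fold (119 to 139) higher outside. Efemp1 was 60.4-fold (43.9 to 84.9) and 75.5-fold (66.5 to 85.9) higher outside than in the inner brain. Both collagens were higher outside too. Col15a1 was higher by 18.2-fold (16.03 to 20.8) and 15.6-fold (14.9 to 16.4), and Col14a1 by 11.3-fold (9.82 to 12.9) and 15.9-fold (14.9 to 16.9). An excess over 8-fold was thus seen for 5 of 5 members in each section, where 8% of panel genes in control tissue and 9.2% in KO tissue passed the same fold. The members were chosen with earlier results of these data known, so this count is no independent support for an enrichment. When the enclosed pockets were counted as inner brain, the log2 ratio of Col15a1 in the control section was 2.80, short of 8-fold.

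In the inner brain, where neurons and their progenitors dominate, 2 of the genes were at the level of the blanks. Efemp1 stood at 41.7 CPM in control tissue and 41.8 CPM in KO tissue, above 9 and 7 of the 50 blanks, and Thbs2 at 105 and 112 CPM, above 32 and 37 of them. Dcn exceeded 44 and 46 blanks. The folds of Dcn, Thbs2 and Efemp1 over the inner brain thus rest on a level within the range of the blanks, and their order is not settled. Only the collagens exceeded all 50 blanks there in both sections, with Col14a1 at 337 CPM (305 to 370) and 242 CPM (232 to 253), and Col15a1 at 333 CPM (302 to 367) and 425 CPM (411 to 439). The highest blank stood at 308 CPM in control and 238 CPM in KO tissue, inside both Col14a1 intervals. Col14a1 thus lay at the edge of the blanks in the inner brain.

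The transcripts of the inner brain were distributed in different ways. Col14a1 was scattered, and 96.3% of its control and 93.0% of its KO transcripts were the only one in their cell. Dcn was partly clustered. Of its transcripts, 60.9% (control) and 42.6% (KO) were single in their cell. In the KO section 94 cells with at least 3 Dcn transcripts held 53.4% of all Dcn transcripts of the inner brain, and in the control section 17 such cells held 24.1%. These counts depend on depth, with a median of 101 transcripts per inner brain cell in the KO and 32 in the control section. Its level also differed between the 2 sides of a section, cut across its long axis, with 99.1 and 275 CPM in control tissue and 304 and 75.0 CPM in KO tissue.

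The edge band lay between the inner brain and the outside for each gene in both sections. Thbs2 stood at 2154 CPM (1971 to 2350) in control tissue and 3322 CPM (3228 to 3418) in KO tissue, and Efemp1 at 441 CPM (360 to 534) and 614 CPM (574 to 657). Col15a1 had similar levels, 1514 CPM (1361 to 1679) and 1579 CPM (1514 to 1646). Col14a1 was closest to its inner level in the control section, at 517 CPM (430 to 618), 1.54-fold the inner level, while in KO tissue it reached 1434 CPM (1372 to 1498), 5.92-fold the inner level. How much outer tissue falls in the band depends on where the outline runs, and with a narrower band, from 25 µm inside to 50 µm outside, the control Col14a1 level was below the inner one, with a log2 ratio of -0.26.

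The genes differed in their distribution over the tissue around the brain. Dcn was already at 45850 CPM (control) and 68966 CPM (KO) between 50 and 75 µm outside the outline. Col14a1 had its control maximum, 5993 CPM, between 125 and 150 µm, and stood at 5948 CPM in the same interval of the KO section, where the interval from 50 to 75 µm held 5740 CPM. Thbs2 peaked between 125 and 150 µm in the control, at 36168 CPM, and between 150 and 175 µm in KO tissue, at 25150 CPM. Thbs2 and Col14a1 were thus both highest in a layer about the same distance from the brain, where Shisa3 and Hhip, regulators of Wnt and hedgehog signalling, were high as well. Hhip stood at 6053 and 4584 CPM between 75 and 175 µm and at 1920 and 1515 CPM beyond 300 µm, and Thbs2 at 27661 and 19761 CPM and at 15795 and 10351 CPM.

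Efemp1 had a maximum near the brain and was high again further out. It reached 3439 CPM in control tissue and 2459 CPM in KO tissue between 100 and 125 µm, was down to 1552 and 1161 CPM between 200 and 225 µm, and stood at 5443 and 5156 CPM between 475 and 500 µm, the last step measured. The sections did not share this course. Between 375 and 400 µm Efemp1 stood at 5567 CPM in KO tissue, its highest step, but at 1166 CPM in control tissue. The control value between 475 and 500 µm was the highest of the control steps. Dcn was highest beyond 300 µm, at 66587 CPM (control) and 83294 CPM (KO), against 38458 and 55817 CPM between 75 and 175 µm. Osr1, a transcription factor of loose connective tissue, was also highest there, at 11241 and 8807 CPM. Col15a1 showed no such layer and varied between 5017 and 7940 CPM in the control from 125 µm to 500 µm. The tissue beyond 300 µm held 4780 control and 7216 KO cells.

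**Figure D2:**
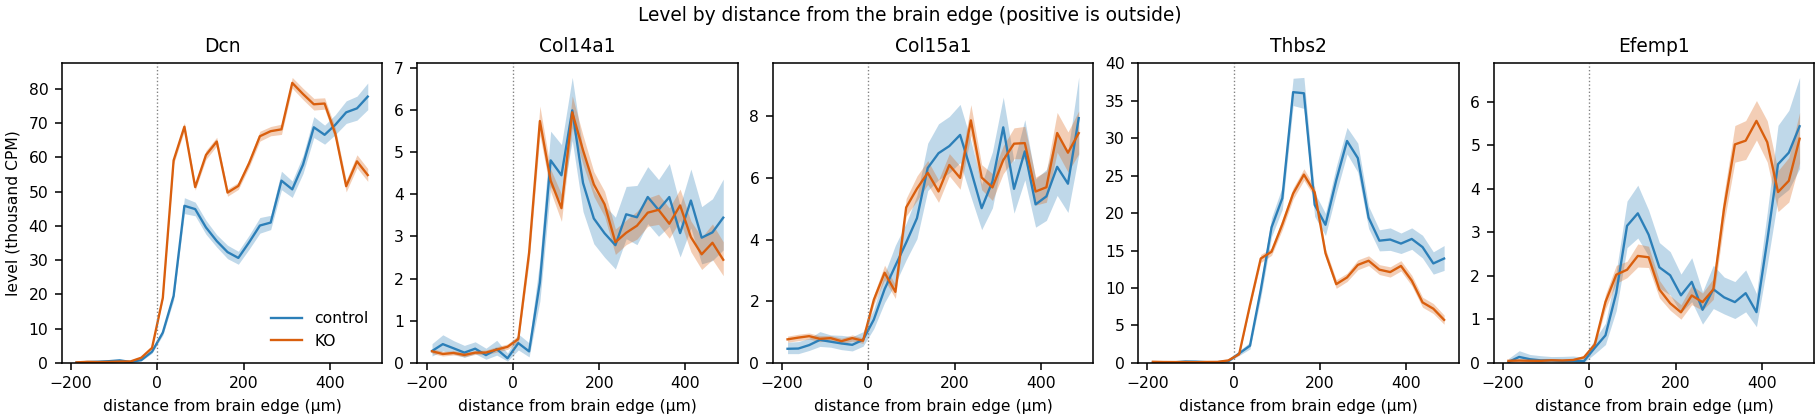
Level of each gene (in units of 1000 CPM) by distance from the brain outline in 25 µm steps, with positive distances outside, for the control (blue) and the KO section (orange), and bands for the 95% counting interval. Thbs2 peaks between 125 and 175 µm in both sections, whereas Dcn stays high further out and Efemp1 is high again further out, up to 5443 CPM in the last step of the control and 5567 CPM between 375 and 400 µm in the KO section.

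Expression was also patchy along the head. Over 250 µm tiles outside the brain with at least 1000 transcripts, Efemp1 ranged from 0 to 18743 CPM with a median of 2073 CPM in 77 control tiles, and from 0 to 30682 CPM with a median of 1825 CPM in 109 KO tiles. The richest 11 tiles held 58.8% of its KO transcripts, where the same number of tiles held at most 26.6% of all panel transcripts. In the control section the richest 8 tiles held 38.4% against 31.3%. Col15a1 was spread most like the panel itself, with 32.5% of control and 33.7% of KO transcripts in its richest tiles.

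Col15a1 was higher in endothelial-marked than in unmarked cells, in the brain and outside it. Endothelial-marked cells are those with at least 3 transcripts of Cldn5, Flt1, Aplnr and Adgrf5, and more of these than of mural or microglial markers. In the inner brain, Col15a1 stood at 1211 CPM (798 to 1762) in 510 such control cells and at 1555 CPM (1419 to 1701) in 1931 KO cells. Inner brain cells without any endothelial or mural transcript held 293 CPM (262 to 326) and 355 CPM (341 to 370), so that endothelial-marked cells were 4.13-fold (2.45 to 6.72) and 4.38-fold (3.83 to 4.99) higher. Outside the brain the level was 28447 CPM (26375 to 30638) in 372 endothelial-marked control cells and 28170 CPM (27480 to 28873) in 1284 KO cells. This was 8.23-fold (7.07 to 9.58) and 12.2-fold (11.1 to 13.5) the level of the unmarked cells there. Among the panel genes of sufficient level other than the markers, Col15a1 ranked 2 of 239 (control) and 2 of 241 (KO) by this ratio, against 18 and 17 of 242 in the inner brain. Microglia-marked cells of the inner brain held 584 CPM (190 to 1363) and 1027 CPM (848 to 1232) of Col15a1, above the unmarked cells by 2.89-fold (2.29 to 3.61) in KO tissue, whereas the control interval included 1. The mark needs transcripts, so more cells passed it in the deeper KO section.

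The same cells can be ordered by place. Endothelial-marked cells held 6950 CPM (5933 to 8091) of Col15a1 in the edge band of control tissue and 6414 CPM (6054 to 6789) in that of KO tissue, between the inner brain and the outside. In the enclosed pockets they held 28523 CPM (24878 to 32552) and 27487 CPM (25518 to 29567), intervals that overlap those of the outside. From inner brain to outside the level of endothelial-marked cells differed by 23.5-fold (14.97 to 38.4) in control tissue and 18.1-fold (16.2 to 20.3) in KO tissue. This was not particular to Col15a1 or to vessels. In the same cells Dcn differed by 48.7-fold (28.5 to 89.2) and 37.6-fold (33.6 to 42.2) and Thbs2 by 53.8-fold (20.5 to 185.6) and 46.5-fold (34.2 to 64.4). The Thbs2 level of these cells in the inner brain was 224 CPM in control and 182 CPM in KO tissue. The highest inner brain blanks stood at 308 and 238 CPM, so the size of the Thbs2 fold is not settled. In unmarked cells Col15a1 differed by 11.8-fold (9.81 to 14.2) and 6.47-fold (5.76 to 7.26). At an equal 25 transcripts per cell, Col15a1 was found in 2.39% of 418 control and 3.55% of 1916 KO endothelial-marked cells of the inner brain, but in 46.4% of 347 and 43.4% of 1282 outside. Without this thinning the shares were 4.78% and 13.3% in the inner brain and 69.2% and 82.8% outside.

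The endothelial markers themselves differed between these places. The cells were picked by the summed transcripts of these markers, so the marker levels below are partly set by the mark. A cell with little Cldn5 passes it only through the other markers. In control tissue Cldn5 was found in 99.8% of endothelial-marked cells in the inner brain and 68.3% outside, and Aplnr in 34.1% and 75.8%. Cldn5, a tight junction protein enriched in the blood-brain barrier, stood at 117660 CPM in the endothelial-marked cells of the control inner brain and 27591 CPM in those outside, and at 63746 and 19782 CPM in KO tissue. Flt1, a VEGF receptor, differed less, with 12246 and 11248 CPM in control tissue and 8482 and 8931 CPM in KO tissue. Aplnr, the apelin receptor, went the other way, with 10945 CPM in the inner brain and 30566 CPM outside in control tissue and 8261 and 19234 CPM in KO tissue. Adgrf5 stood at 3095 and 3464 CPM and at 3822 and 4949 CPM. Igf2, abundant in the surrounding connective tissue, was found in 97.8% of control and 99.5% of KO endothelial-marked cells outside, against 56.3% and 65.1% in the inner brain, and the part of neighbouring cells' transcripts in these levels was not tested.

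**Figure D3:**
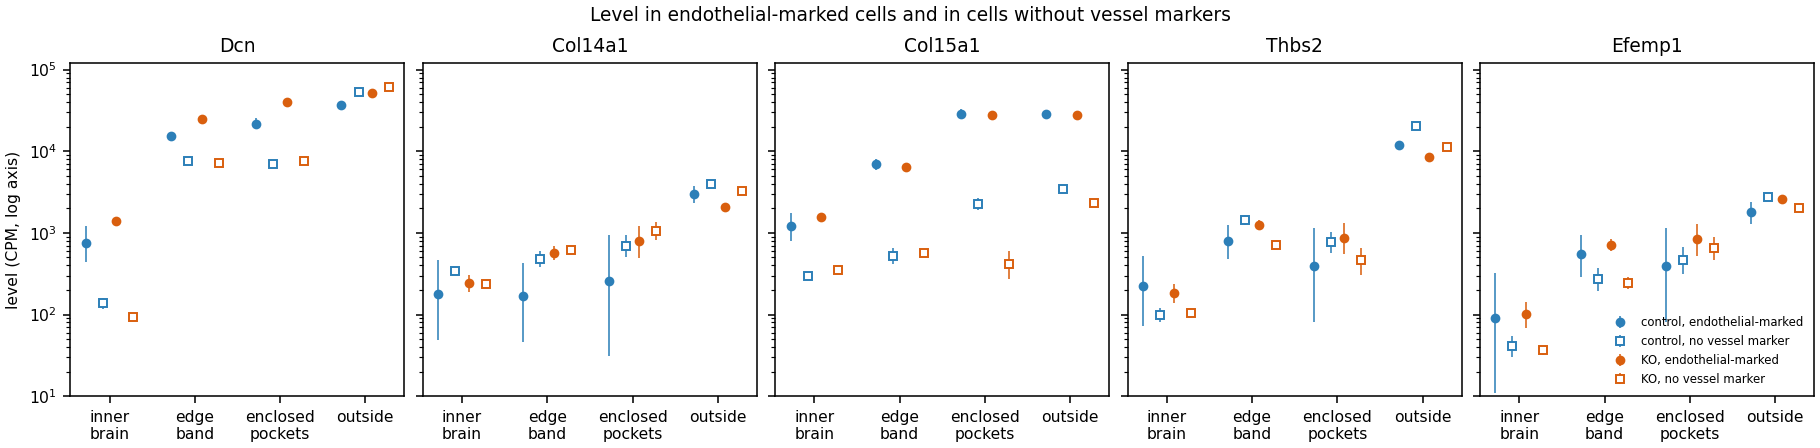
Level of each gene (CPM, log axis) in endothelial-marked cells (filled circles) and in cells with no endothelial or mural transcript (open squares) by place, for the control (blue) and the KO section (orange), with 95% counting intervals. Col15a1 in endothelial-marked cells lies between 27487 and 28523 CPM in the enclosed pockets and outside, against 1211 and 1555 CPM in the inner brain.

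Mural-marked cells, by Kcnj8, Abcc9, Pdgfrb, Acta2 and Cspg4, had a smaller excess of Col15a1 outside the brain. In the inner brain they held 961 CPM of Col15a1 (496 to 1678) in control tissue, and 454 CPM (362 to 562) in KO tissue. This was 3.28-fold (1.52 to 6.40) the level of unmarked cells in the control, and 1.28-fold with an interval that includes 1 (0.977 to 1.65) in KO tissue. The mark did not rest on the same genes in both sections. Cspg4 made up 35.8% of the mural list transcripts of the control inner brain and 20.3% in KO tissue, and Abcc9 23.6% and 40.3%. Whether all these marked cells belong to vessels was not tested. Outside the brain they held 6177 and 5645 CPM, 1.79-fold (1.52 to 2.09) and 2.45-fold (2.22 to 2.71) the level of unmarked cells. Pdgfrb and Cspg4 are also made by connective tissue cells and Acta2 by muscle, so that the mural mark outside the brain, carried by 1175 control and 5091 KO cells, is not confined to vessels.

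The position of single molecules was compared with that of vessels as well, without regard to cell outlines. Of all panel molecules outside the brain, 10.6% in control tissue and 23.8% in KO tissue lay within 15 µm of the centre of an endothelial-marked cell. For Col15a1 the shares were 29.0% (27.7 to 30.3) and 54.6% (53.9 to 55.3), or 2.74 and 2.29 times those of the panel. The other 4 genes lay between 0.660 and 1.09 times the panel share there. In the inner brain Dcn was the gene closest to vessels, with 28.0% (23.4 to 33.1) and 53.7% (51.4 to 55.9) of its molecules, 5.66 and 4.10 times the panel share. Dcn was partly clustered in cells there, so these intervals, which take molecules as independent, are too narrow. Col15a1 had 2.02 and 1.88 times the panel share. Col14a1 had 0.900 and 1.06 times the panel share, but its level there lay at the edge of the blanks, so its proximity to vessels is not settled.

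Dcn in the inner brain was higher than in unmarked cells in endothelial-marked and mural-marked cells and also in microglia-marked cells, whose mark is not vascular. It stood at 763 CPM (444 to 1221) in endothelial-marked, 801 CPM (384 to 1472) in mural-marked and 3038 CPM (1985 to 4452) in microglia-marked cells of the control section, against 137 CPM in unmarked cells. In the KO section the levels were 1390 CPM (1261 to 1528), 815 CPM (691 to 956) and 1250 CPM (1051 to 1475), against 92.5 CPM. Outside the brain endothelial-marked cells held 0.704 (0.647 to 0.766) and 0.860 (0.833 to 0.889) times the Dcn level of unmarked cells. Microglia-marked cells there were above the unmarked cells, at 1.17 (1.10 to 1.24) and 1.32 (1.28 to 1.37) times their Dcn level, and mural-marked cells were at 0.870 (0.828 to 0.914) and 1.204 (1.18 to 1.23) times.

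Single cells were compared after each was thinned at random to 25 transcripts, which kept 43884 control and 99572 KO cells. Outside the brain Dcn was found in 49.0% of 9400 control and 55.2% of 16354 KO cells, and Thbs2 in 32.4% and 23.3%. Col15a1 was found in 11.7% and 11.95%, Col14a1 in 7.11% and 7.69%, and Efemp1 in 5.43% and 6.72%. Before thinning Dcn was in 59.9% and 76.6% of these cells. Microglia-marked cells of the inner brain had been set as the background, and in them Dcn was found in 3.59% of 167 and 1.71% of 642 cells and Col15a1 in 1.80% and 2.65%. Their Dcn level exceeded that of unmarked cells in both sections and their Col15a1 level did in KO tissue, so they are no background for these 2 genes. Over all inner brain cells Dcn was found in 0.408% and 0.285% and Col15a1 in 0.846% and 0.930%. The median depth before thinning was 50 and 136 transcripts outside the brain, 40 and 139.5 in the microglia-marked cells, and 36 and 103 in the inner brain.

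At this depth most cells outside the brain showed few of the 5 genes. None was found in 25.6% of control and 26.1% of KO cells, exactly 1 in 47.6% and 47.7%, 2 in 22.7% and 21.8%, and 3 in 3.99% and 4.12%. All 5 together were found in 0 of 9400 control and 0 of 16354 KO cells, which, taken as 3 counts of the total, allows shares of up to 0.0319% and 0.0183% of cells with all 5 detected at this depth and sets no limit on cells that express them. Dcn alone was found in 26.2% and 31.8% of cells, Thbs2 alone in 15.1% and 9.31%, and only these 2 together in 10.3% and 8.41%.

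The 10 pairs of genes fell into distinct patterns when the cells with both were divided by the number that the product of their shares gives. Dcn and Efemp1 were found together more often, at 1.505 (1.36 to 1.67) in control tissue and 1.44 (1.34 to 1.53) in KO tissue. Of the cells with Efemp1, 73.7% and 79.2% also had Dcn, whereas 8.17% and 9.64% of the cells with Dcn had Efemp1. Col14a1 and Thbs2 were the second such pair, at 1.27 (1.12 to 1.43) and 1.54 (1.40 to 1.69). Of the cells with Col14a1, 41.0% and 35.96% had Thbs2, and of those with Thbs2, 9.01% and 11.9% had Col14a1. Dcn and Col14a1 had an interval above 1 in control tissue only, at 1.13 (1.02 to 1.25), against 1.06 (0.989 to 1.14) in KO tissue.

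Other pairs were found together less often than the product at this depth. Col14a1 and Col15a1, the 2 collagens, had the lowest ratio, at 0.651 (0.485 to 0.856) and 0.586 (0.470 to 0.722). Col15a1 and Thbs2 were at 0.780 (0.691 to 0.877) and 0.736 (0.659 to 0.819), and Thbs2 and Efemp1 at 0.794 (0.664 to 0.942) and 0.730 (0.629 to 0.843). For Dcn and Thbs2 the ratio was 0.852 (0.806 to 0.901) and 0.889 (0.849 to 0.930). Taking the product within 250 µm tiles, so that genes of separate places do not count as apart, left Dcn and Efemp1 at 1.28 (1.15 to 1.41) and 1.15 (1.07 to 1.23) and Col14a1 and Thbs2 at 1.17 (1.04 to 1.32) and 1.42 (1.29 to 1.56). The 2 collagens remained apart, at 0.675 (0.503 to 0.888) and 0.638 (0.512 to 0.786), but Thbs2 and Efemp1 came to 0.899 (0.752 to 1.07) and 0.938 (0.808 to 1.08), and Dcn and Thbs2 to 0.942 (0.891 to 0.995) and 0.981 (0.937 to 1.03). Without thinning the direction turned for Thbs2 with Efemp1, at log2 ratios of 0.14 and 0.12, and in KO tissue for Dcn with Thbs2 (0.0276) and Col15a1 with Thbs2 (0.0420). Among cells without endothelial or mural transcripts the 2 collagens were at 0.366 (0.147 to 0.754) in the control but at 1.48 (0.879 to 2.34) in KO tissue, with 7 and 18 such cells.

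The edge band, which holds cells of the brain and of the tissue around it, differed. In it Col14a1 and Thbs2 were together 8.70 times (5.24 to 13.6) as often as the product in control tissue and 4.90 times (3.84 to 6.16) in KO tissue. Dcn and Thbs2, which were below 1 outside the brain, reached 4.02 (3.30 to 4.84) and 3.16 (2.85 to 3.49). Of the cells with Thbs2 in the band, 70.3% and 74.1% also had Dcn.

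**Figure D4:**
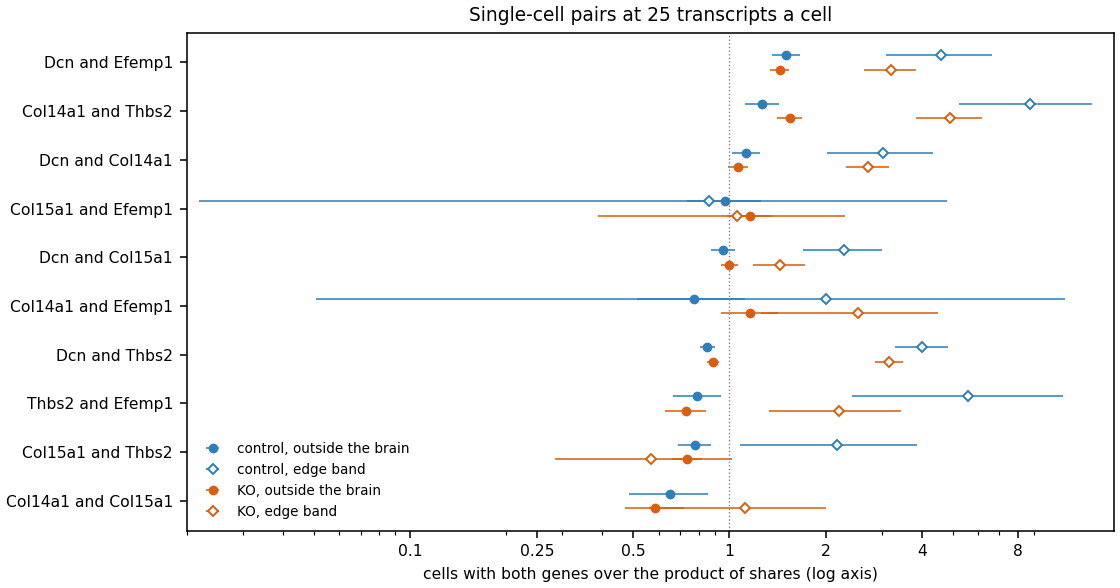
Cells with both genes of a pair, divided by the number the product of the single shares gives (log axis), for cells outside the brain (circles) and of the edge band (diamonds) in the control (blue) and the KO section (orange), at 25 transcripts per cell with 95% counting intervals. Dcn with Efemp1 and Col14a1 with Thbs2 lie above 1 in both sections and both places, and the 2 collagens lie at 0.651 and 0.586 outside the brain. The control pair with 0 cells in the edge band, Col14a1 and Col15a1, is not drawn.

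The genes with the most similar distribution were sought over 100 µm bins, 1254 in control tissue and 1384 in KO tissue, by Spearman's rho as the mean of both sections. Bins of a section share its depth and the contrast of brain and surround, so the values are a description. Creb3l1, a transcription factor of secretory cells, was nearest to each of the 5 genes, with a mean rho of 0.78 for Dcn, 0.75 for Thbs2, 0.69 for Efemp1, 0.64 for Col15a1 and 0.55 for Col14a1. With 200 µm bins it was nearest to Dcn and Col15a1 only, and Timp3 was nearest to Col14a1 (0.69), Thbs2 (0.78) and Efemp1 (0.77). Igf2, the fetal growth factor, came next to it for Dcn (0.75), Thbs2 (0.73) and Efemp1 (0.68). Pdgfra, a receptor of fibroblasts and oligodendrocyte precursors, came next for Dcn (0.72) and Col15a1 (0.60). Timp3, an inhibitor of matrix proteases, was among the nearest for Col15a1 (0.61), Thbs2 (0.70), Efemp1 (0.68) and Col14a1 (0.55), and Igfbp5, an IGF-binding protein, was second for Col14a1 (0.55).

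With the inner brain left out, the neighbours separated. Dcn was then nearest to Osr1 (0.74), Col14a1 to Ccdc80 (0.66), a matrix protein, Thbs2 to Creb3l1 (0.81) and Efemp1 to Igf2 (0.61). Col15a1 was nearest to Daam2 (0.52), Pdgfrb (0.52) and Aplnr (0.52), of which Aplnr is in the endothelial list and Pdgfrb in the mural list, whose genes outside the brain are not confined to vessels. Among the members themselves, over all bins, Dcn and Efemp1 had the highest mean rho (0.70), close to Dcn and Thbs2 (0.69), and Col14a1 and Col15a1 the lowest (0.47). By Pearson's r of log levels Dcn and Thbs2 were highest (0.80). With the inner brain left out, Col14a1 and Thbs2 (0.67) and Dcn and Efemp1 (0.67) were highest by rho. Col14a1 and Col15a1 were again lowest (0.33), so only the lowest pair was the same by rho in both sets of bins.

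Fewer cells of a type and less RNA per cell cannot be told apart in summed levels. Between the sections, the levels over all cells were close for most of the 5 genes. Dcn stood at 15196 CPM in control tissue and 16187 CPM in KO tissue, and Efemp1 at 730 and 706 CPM. Col14a1 stood at 1245 and 1064 CPM and Col15a1 at 2247 and 1833 CPM. Thbs2 differed most, with 5726 and 3167 CPM, a log2 ratio of KO over control of -0.85 (-0.89 to -0.82) at percentile 3.2 of the 250 panel genes of at least median level. No member passed a log2 ratio of 1 in either direction, where 8% of these genes did. Over the whole section the connective list made up 8.18% of control and 4.92% of KO transcripts. The part of the amount of surrounding tissue imaged in the whole-section values was not tested.

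Among cells outside the brain alone, Thbs2 was again lower in KO tissue, with 21268 CPM (20897 to 21644) in control tissue and 14339 CPM (14193 to 14487) in KO tissue and a log2 ratio of -0.57 (-0.61 to -0.53). The sides of the control section stood at 21372 and 21220 CPM and those of the KO section at 16540 and 13301 CPM, so they did not overlap. This was the case for 1 of 5 members, but for 54.8% of the panel genes of at least median level. By distance, Thbs2 was lower in KO tissue beyond 75 µm, with log2 ratios of -0.49 from 75 to 175 µm, -0.67 from 175 to 300 µm and -0.61 further out, but higher by 0.75 within the first 75 µm. The connective list was lower beside it, with 26.7% and 19.96% of transcripts, Igfbp5 among them, and its part in the difference was not tested. Most of that list was Igf2, at 205321 CPM in control and 162389 CPM in KO tissue from 175 to 300 µm. Its genes did not all go the same way. Osr1 was higher in KO tissue from 175 to 300 µm, at 3369 and 5315 CPM, but lower from 75 to 175 µm and beyond 300 µm.

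The other 4 genes outside the brain had sides that overlapped between sections. Dcn stood at 33361 and 60188 CPM in the control sides and at 51333 and 77853 CPM in the KO sides, with a log2 ratio of 0.42 (0.40 to 0.45). Efemp1 stood at 2315 and 2614 CPM and at 2316 and 3550 CPM. By distance its log2 ratio changed sign, with -0.46 (-0.66 to -0.25) from 75 to 175 µm and 0.83 (0.69 to 0.98) beyond 300 µm. Col14a1 was nearly equal, at 3789 CPM (3633 to 3949) and 3845 CPM (3769 to 3922), as was Col15a1, at 6077 CPM (5880 to 6280) and 6641 CPM (6542 to 6742). No member passed a log2 ratio of 1, against 10% of the panel genes.

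In the edge band as drawn all 5 genes had a higher level in KO tissue, as did the typical panel gene, whose median log2 ratio was 0.27. Col14a1 had a log2 ratio of 1.47 (1.15 to 1.80) at percentile 98.4 of the panel, with 637 and 404 CPM in the control sides and 1394 and 1463 CPM in the KO sides. It was the 1 of 5 members beyond a log2 ratio of 1, where 9.2% of the panel genes were. Dcn followed with 0.85 (0.78 to 0.91), then Thbs2 with 0.62 (0.46 to 0.79) and Efemp1 with 0.48 (0.10 to 0.87), whereas the interval for Col15a1 included 0, at 0.06 (-0.15 to 0.27). With a wider band, from 75 µm inside to 150 µm outside, the direction turned for Thbs2 (-0.50) and Efemp1 (-0.39). The sides did not overlap for Dcn, Col14a1 and Efemp1, 3 of 5 members, and for 59.2% of the panel. The neural list made up 5.12% of control and 5.82% of KO transcripts in the band and the connective list 5.49% and 6.30%.

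Within the inner brain no member reached the median level of the panel, and none passed a log2 ratio of 1, where 8.8% of the panel genes did. Col14a1 was lower in KO tissue, with a log2 ratio of -0.47 (-0.67 to -0.27), and Col15a1 higher, with 0.35 (0.16 to 0.54). The Col14a1 interval of each section included the highest blank there, so its ratio cannot be told from false decoding. The Col15a1 ratio was -0.66 when the enclosed pockets were counted as inner brain. The intervals for Dcn, Thbs2 and Efemp1 included 0. The sides of the sections did not overlap for Col14a1, Col15a1 and Thbs2, 3 of 5 members, against 73.2% of the panel genes of at least median level, which no member reached. The Thbs2 sides stood at 103 and 105 CPM in control and 111 and 112 CPM in KO tissue, with overlapping counting intervals.

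**Figure D5:**
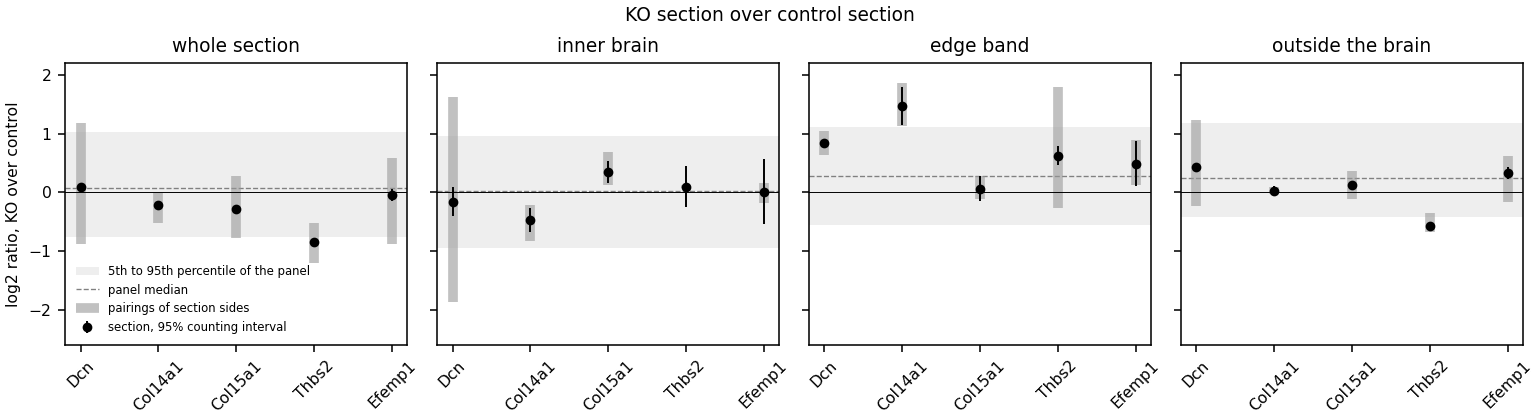
Log2 ratio of KO over control for each gene over the whole section and by place, with the 95% counting interval (black), the range over the 4 pairings of section sides (dark grey bars), the 5th to 95th percentile of the panel (light band) and the panel median (dashed). Thbs2 lies below 0 in all pairings over the whole section and outside the brain, and Col14a1 lies above the panel band in the edge band.

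The panel holds 14 other matrix genes, which set the 5 in context. Over the whole section 7 of them were higher and 7 lower in KO tissue, with a median log2 ratio of -0.01. Of the 5 members 1 was higher and 4 lower, with a median of -0.23, where the panel median was 0.07. Col25a1 (0.66), Lama3 (0.57) and Tnr (0.47) had the highest and Igfbp5 (-1.31), Cspg4 (-1.01) and Bcan (-0.42) the lowest ratios of this list there. Over the whole control section Col25a1 and Lama3 stood at 169 and 194 CPM, below the highest blank (262 CPM). Over the whole KO section they stood at 267 and 288 CPM, above all blanks (highest 240 CPM). The size of these 2 ratios is therefore not settled. Outside the brain 9 of the 14 were higher and 5 lower in KO tissue, with a median log2 ratio of 0.28, against 4 higher and 1 lower of the 5 members with a median of 0.13, where the panel median was 0.25. Of these 14 genes Bcan, Col25a1, Reln and Tnr were below the highest blank there in both sections. The highest ratios outside were those of Lama3, a laminin chain of epithelial basement membranes (1.11, 0.85 to 1.37), Tnr, a glycoprotein of perineuronal matrix (1.05, 0.36 to 1.79), and Npnt, an integrin ligand of basement membranes (0.77, 0.68 to 0.87). Tnr outside the brain stood at 51.0 CPM in control and 106 CPM in KO tissue, within the range of the blanks, so its ratio there cannot be told from false decoding. Lama3 outside the brain stood at 364 CPM in control tissue, below the highest blank there (455 CPM). In KO tissue it stood at 785 CPM outside the brain, above all blanks. The lowest were those of Igfbp5 (-0.99, -1.02 to -0.96), the proteoglycan Cspg4 (-0.75, -0.82 to -0.67) and the hyaluronan-binding proteoglycan Vcan (-0.08, -0.12 to -0.05). Thbs2 thus stood with Igfbp5 and Cspg4 on the lower side.

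In place, too, the other matrix genes differed among themselves. Igfbp5 was higher outside than in the inner brain by a log2 ratio of 5.04 in control tissue and 5.05 in KO tissue, and Col9a2, a cartilage collagen, by 4.27 and 3.80. In the inner brain Col9a2 stood at 75.5 CPM in control and 125 CPM in KO tissue. These levels are within the range of the blanks, so the size of the Col9a2 ratios is not settled. Igfbp5 is in the connective list that helped to draw the outline, so its excess is partly set by it. Tnr, Bcan and Reln, which are made by neurons or glia, stood at 668, 788 and 1530 CPM in the inner brain of control tissue and at 789, 526 and 1507 CPM in that of KO tissue, above all blanks. Outside the brain all 3 were below the highest blank in both sections, so no ratio is given. Vcan and Spon1 were present on both sides, with log2 ratios between 0.52 and 1.19.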

How the data were processed

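Per the labels, MERFISH was run on a MERSCOPE instrument with the Vizgen Pan Neuro panel, and the authors deposited, for each section, whole-number transcript counts per segmented cell, a cell table with the volume of each cell as a signal, and the list of decoded molecules in 7 imaging planes with their positions. The segmentation model and the genome build are not given in the sources used here. The counts were used as deposited, without normalisation other than CPM, in Python 3.11.15 with numpy 2.4.6, scipy 1.17.1 and pandas 2.3.3. The brain outline came from a 25 µm grid smoothed with an SD of 50 µm, at a neural share over 50%. Parts under 0.3 mm2 were dropped. Levels carry exact Poisson and shares exact Clopper-Pearson 95% intervals. For ratios of levels the opposite interval ends were paired. Intervals of the pair ratios are the Poisson interval of the cells with both genes over the product, without the error of the single shares. The functions were checked on simulated counts. With 1 section per group no test was run, and calls mean a log2 ratio beyond 1.

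The members and lists were chosen with earlier results of these data known. Named in the text are the 5 members, the 3 panel genes most like each, the 3 highest and 3 lowest of the other matrix genes, and the genes of the marker lists. The enclosed pockets and the axis that cuts a section in 2 sides were set after the data were seen. Other genes named were chosen after their values were seen. The alternatives covered the minimum of transcripts per cell, decoded molecules in place of cells, the width and threshold of the outline, the marker minimum, thinning, the largest 1% of cells, section sides and the bins of the spatial comparison.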

Additional observations from a re-analysis of the deposited data

Results flagged for a closer look

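Among the inner brain, the edge band and the outside, the counting intervals of the KO over control ratio lay on opposite sides of 0 in different places for Col14a1 and Thbs2, and the difference between the places was not tested. Col14a1 had a log2 ratio of -0.474 in the inner brain, where its level lay at the edge of the blanks, and 1.47 in the edge band. Thbs2 had a log2 ratio of 0.625 in the edge band and -0.569 outside the brain. In the edge band the sides of the control section stood at 3280 and 1090 CPM for Thbs2 and those of the KO section at 2714 and 3775 CPM, so the Thbs2 value of the band rested on the side compared. In the enclosed pockets Col15a1 had a log2 ratio of -0.19 (-0.374 to -0.00375), against 0.35 in the inner brain and 0.13 outside. By distance from the outline Efemp1 had log2 ratios of 0.55 within 75 µm, -0.46 from 75 to 175 µm and 0.83 beyond 300 µm, with intervals that exclude 0, and these differences were not tested either.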

How the results depend on the processing

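No paired analysis was possible because there was 1 section per genotype, and no replicate could be left out. The excess of all 5 genes outside the brain kept its direction under every alternative tried. The sign of the small KO over control ratios did not. The number of members higher in KO tissue over the whole section, 1 as reported, was 2 with no minimum or a minimum of 10 transcripts per cell, 0 with a minimum of 50, 3 with all decoded molecules or a single imaging plane, and 5 per cell volume, where the greater depth of the KO run enters by construction. It was 0, 2 or 3 in pairings of section sides, 3 within the inner brain, 5 within the edge band and 4 outside the brain. The panel genes of at least median level had a median log2 ratio of 0.07 over the whole section and 0.02 within the inner brain. Their median was 0.27 in the edge band and 0.25 outside, and the share of panel genes higher in KO tissue was not counted. For Dcn the log2 ratio was -0.59 with a minimum of 50, -0.88 in 1 pairing of sides and -0.16 in the inner brain. For Col14a1 it was 0.0487 with all molecules, 0.15 in 1 imaging plane, 1.82 per volume, 1.47 in the edge band and 0.0212 outside. For Col15a1 it was 1.75 per volume, 0.28 in 1 pairing of sides, 0.35 in the inner brain, 0.0608 in the edge band and 0.13 outside, and, with the enclosed pockets counted as inner brain, an alternative chosen after seeing the data, the inner brain ratio was -0.66. For Thbs2 it was 1.19 per volume, 0.0931 in the inner brain and 0.62 in the edge band. With a band from 75 µm inside to 150 µm outside, the edge ratios were -0.50 for Thbs2 and -0.39 for Efemp1, and with the narrower band the control log2 ratio of edge over inner brain was -0.26 for Col14a1. The cause was not tested.

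For endothelial-marked over unmarked cells, the log2 ratio of Col15a1 in the KO inner brain was 1.88 with at least 2 and 2.35 with at least 5 marker transcripts, and outside the brain it was 3.04 in the control and 3.61 in KO tissue. Outside the brain the log2 ratio in control and KO tissue was -0.51 and -0.22 for Dcn and -0.74 and -0.42 for Thbs2. It was -0.42 and -0.63 for Col14a1 and -0.64 and 0.35 for Efemp1. In mural-marked control cells it was -0.20 for Dcn.

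Outside the brain 3 control and 2 KO pairs of the 10 were found together more often than the product, counting intervals above 1. These counts were 6 and 7 without thinning, 10 and 10 over the whole section, 7 and 7 in the edge band and 1 and 1 in the inner brain, and for KO tissue 5 at 50 transcripts per cell, 4 without the largest cells and at most 4 over 20 other thinnings. Over the whole section the log2 ratio of observed cells to the product was 1.68 and 2.09 for Dcn with Thbs2, 0.50 and 0.76 for the 2 collagens, 1.203 and 1.29 for Col15a1 with Thbs2 and 1.64 and 1.76 for Thbs2 with Efemp1. In the edge band it was 2.01 and 1.66 for Dcn with Thbs2, 2.48 and 1.14 for Thbs2 with Efemp1, 1.11 for Col15a1 with Thbs2 in the control and 0.17 for the 2 collagens in KO tissue. Without thinning it was 0.14 and 0.12 for Thbs2 with Efemp1, and for KO tissue 0.0276 for Dcn with Thbs2 and 0.0420 for Col15a1 with Thbs2. With at least 2 transcripts it was -0.17 for Dcn with Col14a1 in the control. Of the 15 most similar genes, 6 were shared when bins of the inner brain were left out.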

Other observations

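The enclosed pockets held a mixture of their own. Dcn stood at 13631 CPM (12928 to 14361) in 2218 control cells and at 26065 CPM (25324 to 26821) in 1080 KO cells of these pockets, and Col15a1 at 7511 CPM (6992 to 8059) and 6588 CPM (6219 to 6974), close to its levels of 6077 and 6641 CPM outside the brain. Thbs2, in contrast, reached only 1083 CPM (892 to 1303) and 700 CPM (583 to 833), against 21268 and 14339 CPM outside the brain. The pockets covered 0.486 mm2 in control tissue and 0.251 mm2 in KO tissue. Ccdc153, the 1 gene of the choroid list on the panel, made up 0.0106% and 0.0133% of their transcripts, so the list gives no cell type for them. The Dcn level of the pockets differed widely between section sides, with log2 ratios of KO over control from -1.07 to 3.005 over the pairings.

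The share of molecules assigned to a cell differed between genes. Outside the brain 80.2% of Col15a1 molecules in control tissue and 83.7% in KO tissue lay in a cell, and 76.0% and 71.0% of those of Col14a1, against 76.8% and 77.4% of all panel molecules.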
